A study of Arabidopsis thaliana with 6 samples.

Results

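The genes described here are 10 Arabidopsis genes of iron storage and iron homeostasis, taken by their locus identifiers from 32833 genes in the count files. They are the ferritin genes FER1, FER3 and FER4, the regulators BTS and PYE, the iron handling genes FRO3, NAS4 and OPT3, and the peptide genes IMA1 and IMA2. All 10 were among the 21268 genes with enough counts to be tested. RNA-seq read counts came from 14-day-old seedlings of *Arabidopsis thaliana*, 2 libraries for each of 3 genotypes, the wild type Col-0, the mutant *fio1-1* and the mutant *fio1-2*. FIO1 is the plant relative of METTL16, an enzyme that methylates adenosines in RNA, and the comparisons ask which genes change when it is impaired. The *fio1-1* allele is a chemically induced splice-site mutation that removes a short stretch of the protein. The *fio1-2* group keeps its label name, although the paper reserves that name for a T-DNA insertion line, and it is read here as the CRISPR-made allele *fio1-5*. No other allele or treatment is given for any group. Each line was sampled as a pool of whole seedlings, so root and shoot RNA were mixed, and fewer cells of a type cannot be told apart from less RNA per cell. The labels and the study's methods differ on whether plants grew on soil or on plates, and no iron treatment is described.

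Iron is needed in chloroplasts and mitochondria and is toxic when free, so plants store it, chelate it and control its uptake. Ferritins are protein shells that hold iron, mostly in plastids, and their transcripts are known to rise when iron is plentiful. PYE (POPEYE) is a bHLH transcription factor that represses genes such as NAS4 and FRO3, and BTS (BRUTUS) is a ubiquitin ligase that acts on ILR3 and its close bHLH relatives. The IMA (IRON MAN) genes encode short peptides that interact with BTS and raise the iron deficiency response. Transcripts of BTS, PYE, FRO3, NAS4, OPT3, the IMA genes and the group Ib bHLH factors (bHLH38, bHLH39, bHLH100 and bHLH101) are known to rise when iron is short, and ferritin transcripts to fall.

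The libraries held 9717111 to 13055457 counts each, and levels are given as counts per 1000000 counts of the library (CPM) after TMM scaling. Where a level is written with ±, the second value is the SD over n = 2 libraries, and where a log2 fold change is, it is the standard error (SE). Differences were tested with limma-voom over all 21268 genes. A gene is said to rise or fall below an adjusted p of 0.05 (Benjamini-Hochberg), and to be called when it also changed by at least 1 on the log2 scale, which is 2-fold. Markers were summed to check the tissue. The 6 green leaf genes reached 38401 to 38540 CPM in wild type, 46330 to 48886 in *fio1-1* and 40792 to 40863 in *fio1-2*, and the 9 root genes 1675 to 1703, 1760 to 1812 and 2281 to 2340 CPM in the same order. The green leaf sum is mostly LHCB1.3 (18065 CPM in wild type) and RBCS1A (14069), both named after their values were seen. Of the green leaf genes, 5 rose and 0 fell in *fio1-1*, and 3 rose and 3 fell in *fio1-2*. Over all genes, 14.2% rose and 14.3% fell in *fio1-1*, and 16.4% rose and 16.1% fell in *fio1-2*. Seed marker genes went against the seedling label in *fio1-2*, where the 9 seed storage and oil body genes summed to 8700 to 9002 CPM, against 39.4 to 41.6 CPM in *fio1-1* and 0.673 to 0.920 CPM in wild type, in which 5 of the 9 were at 0 in each library. The part of seed RNA in the differences below was not tested.

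The sequences of IMA1 and IMA2 are shown first because both genes encode short peptides, lie close together on chromosome 1 and share long stretches, which bears on how well their counts can be separated. Both are single-exon genes on the plus strand, and in the TAIR10.1 assembly (RefSeq) IMA2 runs from 17382998 to 17383830 and IMA1 from 17385707 to 17386485. Their coding sequences are chr1:17385818-17385970 for IMA1 and chr1:17383117-17383269 for IMA2. Capitals mark the 17 bases at which the 2 coding sequences differ.
IMA1: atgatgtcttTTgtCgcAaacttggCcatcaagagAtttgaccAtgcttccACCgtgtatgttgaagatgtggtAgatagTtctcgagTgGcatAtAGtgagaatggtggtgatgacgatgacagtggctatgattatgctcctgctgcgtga
IMA2: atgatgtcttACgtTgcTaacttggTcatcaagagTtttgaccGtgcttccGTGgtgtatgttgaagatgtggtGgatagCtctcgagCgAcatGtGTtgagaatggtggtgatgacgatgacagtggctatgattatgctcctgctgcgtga
Of 153 coding bases, 136 were identical (88.9%), and the last part of both sequences held no difference. The longest run shared by both transcripts was 59 bases. Reads were sequenced in pairs and, before trimming, were longer than this run. An untrimmed read of either transcript thus covers bases that differ between the genes. Only reads shortened by trimming could lie within a shared run and belong to either gene. How many did was not tested, and how such reads were counted is not stated. The coding sequence of IMA3, the third gene of the family considered here, was 49.4% identical to that of IMA1 and 50.6% to that of IMA2, so its counts rest on distinct sequence.

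Most of the 10 genes fell in the mutants, and more of them fell in *fio1-2*. In *fio1-2*, 9 of 10 fell against wild type and 1, FER4, rose. Over all tested genes, 16.1% fell and 16.4% rose in this comparison. Of the 10 genes, 3 (IMA1, PYE and IMA2) were called lower, against 1.7% of all genes, and 0 were called higher, against 4.24% of all genes. In *fio1-1*, 6 of 10 fell and 0 rose, where 14.3% of all genes fell and 14.2% rose, and 0 of 10 were called in either direction, where 1.99% of all genes were called lower and 2.92% higher. At an unadjusted limma-voom p under 0.05, again 0 of 10 rose in *fio1-1*. edgeR and DESeq2 also gave 0 that rose, and DESeq2 called 1 gene, FER1, lower. The median log2 fold change of the 10 genes was -0.58 in *fio1-2* and -0.27 in *fio1-1*, against 0.0027 and 0.0075 over all genes. Both comparisons share the wild-type libraries. The 10 genes, like the other lists below, were chosen with earlier results of these data known. Their shares beside those of all genes are thus a description and no independent support. In *fio1-2* against *fio1-1*, which tests the difference between the mutants directly, 7 of 10 were lower and 2 higher, and 2 of 10 were called lower. The median was -0.42 against -0.0019 over all genes, of which 8.76% were lower, 9.31% higher, 0.545% called lower and 2.13% called higher.

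**Figure D1:**
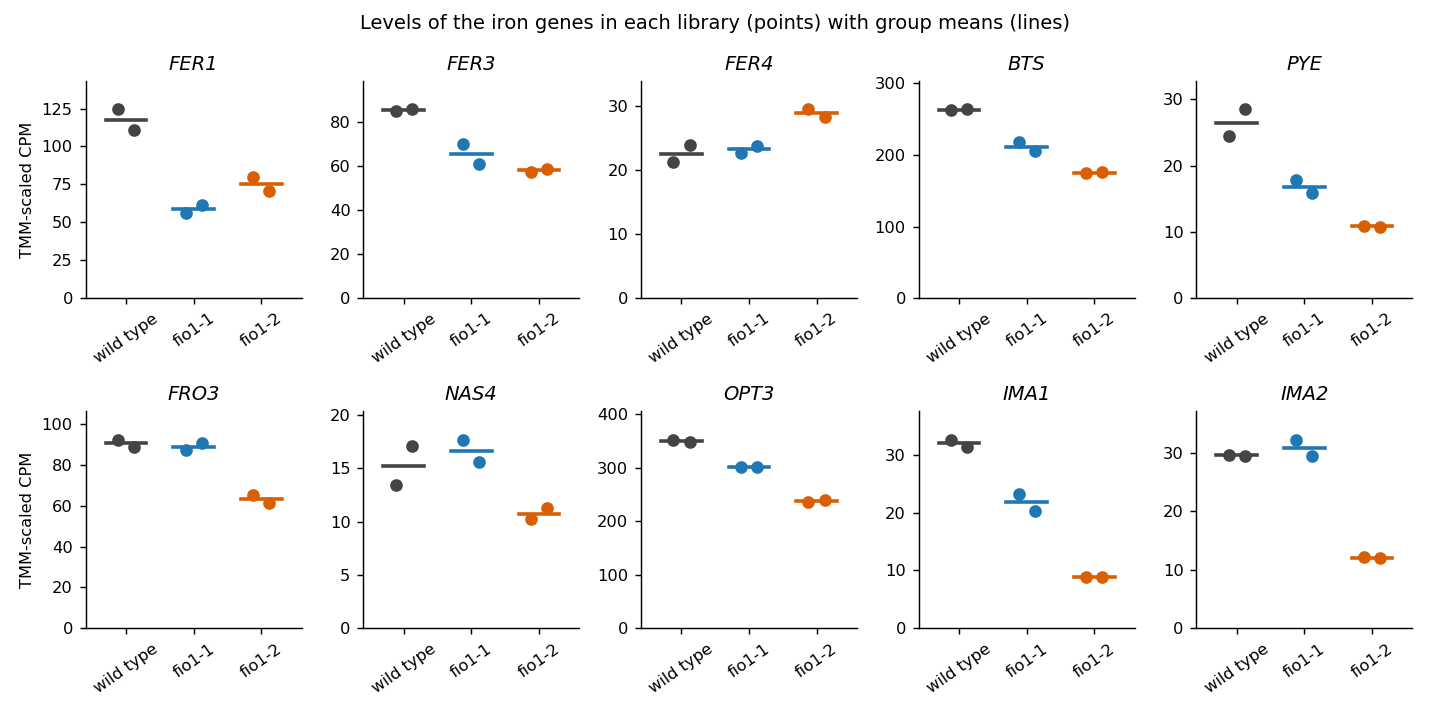
TMM-scaled CPM (y axis, from 0) of the 10 iron genes in each library (points) with the mean of each genotype (lines), for wild type (grey), *fio1-1* (blue) and *fio1-2* (orange). Both *fio1-2* libraries lie below both wild-type libraries for every gene except FER4, where they lie above. The share of all genes with libraries so separated was not counted.

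**Figure D2:**
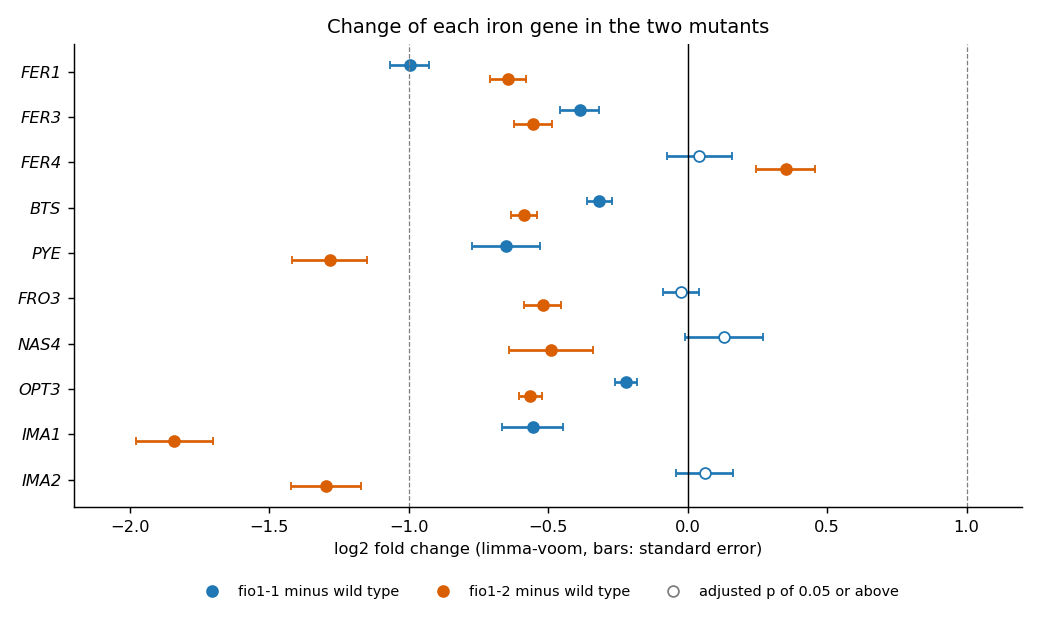
log2 fold change of each iron gene against wild type (x axis) in *fio1-1* (blue) and *fio1-2* (orange), with the standard error of the limma-voom fit as bars and open symbols where the adjusted p was 0.05 or above. Dashed lines mark a change of 1 on the log2 scale, which IMA1, PYE and IMA2 pass in *fio1-2* and which FER1 in *fio1-1* falls just short of.

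Within the ferritins, FER1 and FER3 fell in both mutants and FER4 did not fall in either. FER1 (AT5G01600, chromosome 5, 227953 to 230051, minus strand) encodes a leaf ferritin known for its response to iron excess. It had 124 and 111 CPM in the wild-type libraries, against 56.0 and 61.6 in *fio1-1* and 80.2 and 70.8 in *fio1-2*. Libraries of different genotypes did not overlap, and *fio1-1* was the lowest, which sets FER1 apart from the order seen for PYE, BTS, OPT3 and IMA1. The log2 fold change was -0.997 ± 0.071 (SE) in *fio1-1* (adjusted p = 1.88e-19) and -0.65 ± 0.065 in *fio1-2* (adjusted p = 3.3e-13). The value in *fio1-1* lies at the minimum for a call, and it passed that minimum in 8 of 16 alternative analyses. FER1 was higher in *fio1-2* than in *fio1-1* by 0.35 on the log2 scale (adjusted p = 0.000182). An antisense long noncoding RNA gene, AT5G01595, overlaps FER1 over 1334 bases and held 16 to 32 counts per library, where FER1 held 564 to 1218. Whether counting used the strand is not stated, so reads in the overlap may have been dropped or assigned to either gene.

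FER3 (AT3G56090, chromosome 3, 20813904 to 20816035, minus strand), another ferritin of leaves, had 85.1 and 85.7 CPM in wild type, against 70.0 and 61.0 in *fio1-1* and 57.4 and 58.7 in *fio1-2*. All mutant libraries were below both wild-type libraries. Its log2 fold change was -0.39 in *fio1-1* (adjusted p = 7.32e-06) and -0.56 in *fio1-2* (adjusted p = 5.65e-10). The difference between the mutants, -0.17 ± 0.073 (SE), did not pass the test (adjusted p = 0.102), although it did without *fio1-1* replicate 2 (-0.27, adjusted p = 0.0213).

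FER4 (AT2G40300, chromosome 2, 16831109 to 16833294, minus strand), a ferritin also found in mitochondria, moved the other way in *fio1-2*. It had 21.3 and 23.9 CPM in wild type, against 22.7 and 23.8 in *fio1-1* and 29.5 and 28.3 in *fio1-2*. Both *fio1-1* values lay within the wild-type range, and both *fio1-2* values lay above it. FER4 rose by 0.35 ± 0.107 on the log2 scale in *fio1-2* (adjusted p = 0.0073), and its value in *fio1-1* was 0.04 (adjusted p = 0.826). The rise did not pass without wild type replicate 1 (adjusted p = 0.154) or with DESeq2 (adjusted p = 0.0922). The same-strand neighbour AT2G40290 overlaps FER4 over 118 bases and held 930 to 1146 counts per library, so reads in that overlap are uncertain.

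The fourth ferritin gene, FER2 (AT3G11050), known as the seed ferritin, was counted with the paralogs. It had 1.23 and 1.06 CPM in wild type, against 1.69 and 1.89 in *fio1-1* and 7.26 and 6.20 in *fio1-2*. This low wild-type level rests on 12 and 11 counts. FER2 was called higher in *fio1-2*, by 2.50 ± 0.376 (SE) on the log2 scale (adjusted p = 1.15e-07), and did not pass in *fio1-1* (0.63, adjusted p = 0.322). The seed markers moved with it, at 0.673 to 0.920 CPM in wild type and 8700 to 9002 in *fio1-2*, and their part in the FER2 value was not tested. On a per-length scale the ferritin genes kept the order FER1, FER3, FER4, FER2 in wild type, at 82.8, 66.9, 18.1 and 0.995 CPM per kilobase of exons. In *fio1-1* FER3 stood highest, with 47.7 to 54.8 CPM per kilobase against 39.4 to 43.3 for FER1. The coding sequences of FER3 and FER4 were 76.4% identical, and each other ferritin pair was 67.0% to 68.7% identical.

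**Figure D3:**
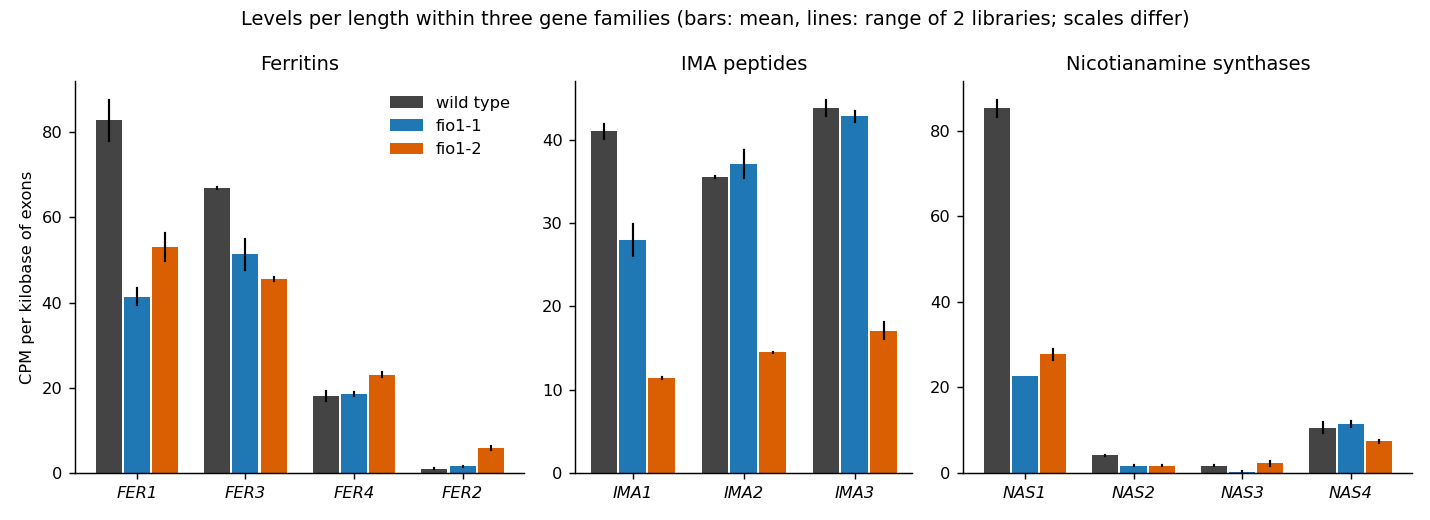
Mean level per length (CPM per kilobase of exons, y axis from 0, with its own scale in each panel) of the ferritin, IMA and nicotianamine synthase genes in wild type (grey), *fio1-1* (blue) and *fio1-2* (orange), with lines for the range of both libraries. FER1 falls from 82.8 in wild type to 41.4 in *fio1-1* and 53.1 in *fio1-2*, and the 3 IMA genes fall together in *fio1-2*, to between 11.4 and 17.1.

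Both regulators fell in both mutants, and fell further in *fio1-2*. PYE (AT3G47640, chromosome 3, 17567126 to 17569394, plus strand) had 24.4 and 28.5 CPM in wild type, against 17.8 and 15.9 in *fio1-1* and 10.9 and 10.8 in *fio1-2*. These are separate steps, with no overlap. PYE fell by 0.65 ± 0.123 (SE) on the log2 scale in *fio1-1* (adjusted p = 1.72e-05) and by 1.28 ± 0.134 in *fio1-2*, where it was 2.43-fold lower than in wild type (adjusted p = 1.62e-12). The mutants differed by -0.63 (adjusted p = 0.000656). BTS (AT3G18290, chromosome 3, 6273966 to 6280562, plus strand) had 262 and 264 CPM in wild type, against 218 and 205 in *fio1-1* and 175 and 176 in *fio1-2*. Its steps were smaller than those of PYE but the replicates were close. The log2 fold change of BTS was -0.32 ± 0.045 in *fio1-1* (adjusted p = 3.39e-08) and -0.59 ± 0.046 in *fio1-2* (adjusted p = 9.28e-18), with a difference of -0.27 between the mutants (adjusted p = 6.62e-06).

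FRO3 and NAS4, which PYE is known to repress, fell in *fio1-2* and did not pass the test in *fio1-1*. FRO3 (AT1G23020, chromosome 1, 8149868 to 8153796, minus strand) encodes a ferric reductase of mitochondria. It had 92.3 and 88.5 CPM in wild type, against 87.0 and 90.8 in *fio1-1* and 65.1 and 61.3 in *fio1-2*. Wild type and *fio1-1* overlapped, and both *fio1-2* libraries were below them. The log2 fold change of FRO3 was -0.02 in *fio1-1* (adjusted p = 0.821) and -0.52 ± 0.066 (SE) in *fio1-2* (adjusted p = 1.1e-09), with a difference of -0.50 between the mutants (adjusted p = 9.62e-09). The antisense gene AT1G23010 shares 24 bases with FRO3. NAS4 (AT1G56430, chromosome 1, 21136835 to 21138277, plus strand) encodes a synthase of nicotianamine, a small chelator that carries iron through the plant. Its libraries held 13.4 and 17.0 CPM in wild type, against 17.7 and 15.6 in *fio1-1* and 10.2 and 11.3 in *fio1-2*. Relative to their mean, the wild-type libraries of NAS4 differed more than those of the other 9 genes, but both *fio1-2* libraries lay below them. The log2 fold change of NAS4 was 0.13 in *fio1-1* (adjusted p = 0.532) and -0.49 ± 0.151 in *fio1-2* (adjusted p = 0.0083). The fall in *fio1-2* did not pass without wild type replicate 2 (-0.31, adjusted p = 0.264), without *fio1-2* replicate 1 (adjusted p = 0.0649) or with DESeq2 (adjusted p = 0.0797). Between the mutants NAS4 differed by -0.62 (adjusted p = 0.00101).

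OPT3 (AT4G16370, chromosome 4, 9247302 to 9250343, minus strand) loads iron into the phloem and is needed for the signal of shoot iron status to the root. It was the most abundant of the 10 genes, with 353 and 349 CPM in wild type, against 300.4 and 301 in *fio1-1* and 235 and 239 in *fio1-2*. Genotypes were again separate steps with close replicates. OPT3 fell by 0.22 ± 0.040 (SE) on the log2 scale in *fio1-1* (adjusted p = 9.56e-06) and by 0.56 ± 0.041 in *fio1-2* (adjusted p = 3.85e-19), with a difference of -0.34 between the mutants (adjusted p = 6.07e-10). The summed phloem markers had 273 to 284 CPM in wild type, 414 to 418 in *fio1-1* and 402 to 404 in *fio1-2*. The largest parts of this sum were SUC2 (108 CPM in wild type) and PP2-A1 (81.6), both named after their values were seen. Of the 7 phloem markers, 5 rose in *fio1-1* and 6 in *fio1-2*, where 14.2% and 16.4% of all genes did, and 0 fell in either. The part of phloem content in the OPT3 values was not tested.

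IMA1 showed the largest change of the 10 in *fio1-2*, and IMA2 changed there by about as much as PYE. IMA1 (AT1G47400) had 32.6 and 31.3 CPM in wild type, against 23.2 and 20.3 in *fio1-1* and 8.79 and 8.96 in *fio1-2*, which rest on 319 and 325, 234 and 204, and 92 and 117 counts. The 3 genotypes did not overlap. It fell by 0.56 ± 0.109 (SE) on the log2 scale in *fio1-1* (adjusted p = 3.62e-05) and by 1.84 ± 0.139 in *fio1-2* (adjusted p = 2.84e-18), a 3.58-fold lower level. IMA2 (AT1G47395) had 29.6 and 29.5 CPM in wild type, against 32.3 and 29.5 in *fio1-1* and 12.1 and 11.9 in *fio1-2*. For IMA2 the wild-type and *fio1-1* libraries overlapped, and *fio1-2* was far below both. The log2 fold change of IMA2 was 0.06 ± 0.101 in *fio1-1* (adjusted p = 0.707) and -1.30 ± 0.125 in *fio1-2* (adjusted p = 8.89e-14), a 2.46-fold lower level. Both were called lower in *fio1-2* than in *fio1-1*, by 1.28 for IMA1 (adjusted p = 7.58e-11) and 1.36 for IMA2 (adjusted p = 2.88e-14). IMA3 (AT2G30766), counted with the paralogs, behaved like IMA2. It had 85.3 and 89.4 CPM in wild type, against 86.8 and 84.1 in *fio1-1* and 32.0 and 36.1 in *fio1-2*. Its log2 fold change was -0.03 in *fio1-1* (adjusted p = 0.758) and -1.35 ± 0.079 in *fio1-2* (adjusted p = 8.26e-24). IMA3 overlaps 2 antisense genes, so its counts carry the same uncertainty over strand.

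Per length of exons, OPT3 was the highest of the 10 in wild type, with a mean of 130 CPM per kilobase (129.3 and 131 in the libraries). FER1 (82.8), FER3 (66.9), BTS (58.5), IMA1 (41.0), IMA2 (35.5) and FRO3 (32.5) followed as mean CPM per kilobase, each with libraries apart from those of its neighbours. PYE (19.1) and FER4 (18.1) overlapped, and NAS4 (10.5) was the lowest. In *fio1-2* the order was OPT3 (87.9), FER1 (53.1), FER3 (45.5), BTS (39.0), FER4 (23.1), FRO3 (22.7), IMA2 (14.5), IMA1 (11.4), PYE (7.83) and NAS4 (7.44), where FER4 overlapped FRO3 and PYE overlapped NAS4. IMA1 thus stood above IMA2 and FRO3 in wild type and below both in *fio1-2*. In *fio1-1*, FER1 had dropped below FER3 and BTS, and PYE (12.2) overlapped NAS4 (11.5).

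Group Ib bHLH factors, which join FIT to switch on root iron uptake, fell in *fio1-2* by amounts like those of the IMA genes. bHLH38 stood at 19.1 ± 1.56 CPM in wild type, against 18.6 ± 0.626 in *fio1-1* and 6.55 ± 0.0606 in *fio1-2*, and its log2 fold change in *fio1-2* was -1.54 (adjusted p = 4.73e-12). In the same comparison bHLH39 had -1.51 (adjusted p = 3.6e-14) and bHLH100 -1.51 (adjusted p = 2.2e-15). None of these 3 passed in *fio1-1*, with log2 fold changes of -0.04, -0.16 and 0.01, and all 3 were called lower in *fio1-2* than in *fio1-1*. The fourth, bHLH101, named after its values were seen, fell in both, by 0.48 in *fio1-1* (adjusted p = 0.000818) and 0.82 in *fio1-2* (adjusted p = 3.97e-08). Of the 10 listed iron bHLH factors, 1 rose and 3 fell in *fio1-1*, and 1 rose and 5 fell in *fio1-2*. Over all genes, 14.2% rose and 14.3% fell in *fio1-1*, and 16.4% rose and 16.1% fell in *fio1-2*. ILR3, the bHLH factor that BTS acts on, had 90.1 ± 5.06 CPM in wild type, against 79.6 ± 2.43 in *fio1-1* and 83.8 ± 0.982 in *fio1-2*. Its fall in *fio1-1* (-0.18, adjusted p = 0.0323) did not pass without wild type replicate 1 (adjusted p = 0.334) or without *fio1-1* replicate 2 (adjusted p = 0.193), nor with DESeq2 (adjusted p = 0.153) or upper-quartile factors (adjusted p = 0.107). Of the BTS paralogs, BTSL1 fell in *fio1-2* by 0.54 (adjusted p = 0.000167), and BTSL2 did not pass in any comparison (0.21 in *fio1-2*, adjusted p = 0.324).

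Of the other nicotianamine synthase genes, NAS1 and NAS2 fell in both mutants and NAS3 fell in *fio1-1*. NAS1, the most abundant of the family, fell strongly in both mutants, from a wild-type level of 119 ± 3.98 CPM to 31.8 ± 0.150 in *fio1-1* and 38.8 ± 2.57 in *fio1-2*. Its log2 fold changes were -1.91 (adjusted p = 5.9e-31) and -1.63 (adjusted p = 6.1e-30). NAS2 was also called lower in both, with -1.29 and -1.28, from a level of 5.40 CPM in wild type. NAS3 was at 2.37 ± 0.178 CPM in wild type, against 0.397 ± 0.140 in *fio1-1* (8 counts in sum) and 3.18 ± 1.13 in *fio1-2*. It was called lower in *fio1-1* (-2.48, adjusted p = 0.000644) and did not pass in *fio1-2*. The coding sequences of NAS1 and NAS2 were 82.8% identical, and those of NAS3 and NAS4 79.1%, each pair with shared transcript runs of at most 49 bases. Of all 10 listed paralogs, 2 rose and 3 fell in *fio1-1*, where 14.2% and 14.3% of all genes did. In *fio1-2*, 4 of them rose and 4 fell, where 16.4% and 16.1% of all genes did.

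Of the root iron uptake genes, IRT1, FRO2 and S8H rose in *fio1-1* and fell in *fio1-2*, and others changed the same way in both. In *fio1-1*, 7 of 10 rose and 0 fell, where 14.2% and 14.3% of all genes did, and 4 were called higher, where 2.92% of all genes were. In *fio1-2*, 3 rose and 4 fell, where 16.4% and 16.1% of all genes did. IRT1, the main iron transporter of the root surface, went from a wild-type level of 82.9 ± 2.12 CPM to 160.2 ± 5.73 in *fio1-1* and 63.1 ± 1.56 in *fio1-2*, with log2 fold changes of 0.95 (adjusted p = 2.18e-22) and -0.40 (adjusted p = 1.8e-06). FRO2, the ferric reductase of the root surface, had 1.06 and -0.36, both past the test. CYP82C4, an enzyme of iron-mobilising coumarins, was called higher in *fio1-1* (1.89, adjusted p = 9.27e-25) and had 0.04 in *fio1-2*. MYB72, a regulator of the same coumarins, was called higher in *fio1-1* (2.19, adjusted p = 0.00152) from a level of 9 counts over both wild-type libraries. S8H (AT3G12900), which makes one of these coumarins, was called higher in *fio1-1* (2.18) and lower in *fio1-2* (-1.14, adjusted p = 0.0181). That fall did not pass without wild type replicate 2 (-0.61, adjusted p = 0.426) or without *fio1-2* replicate 1 (-0.77, adjusted p = 0.202). Among genes named after their values were seen, F6H1 (0.52 and 0.63) and PDR9 (0.58 and 0.19), both of the coumarin route, rose in both mutants. FIT, the bHLH factor of root uptake and likewise named after its values were seen, fell in *fio1-2* (-0.75, adjusted p = 0.000367). It had -0.28 in *fio1-1* (adjusted p = 0.213). Of the 9 root markers, 4 rose and 0 fell in *fio1-2*, and 2 rose and 2 fell in *fio1-1*. Their sum is mostly PYK10, also named after its values were seen, which went from a wild-type level of 1596 CPM to 1692 in *fio1-1* and 2191 in *fio1-2*.

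Genes of iron transport within the plant moved both ways, with 5 of 17 higher and 4 lower in *fio1-1*, and 5 higher and 6 lower in *fio1-2*. Over all genes these shares were 14.2% and 14.3% in *fio1-1*, and 16.4% and 16.1% in *fio1-2*. YSL2, a transporter of metal chelates with nicotianamine, was called higher in *fio1-2* (1.39, adjusted p = 1.92e-16) and fell in *fio1-1* (-0.49, adjusted p = 0.0106). The fall did not pass without wild type replicate 1 (adjusted p = 0.124) or without *fio1-1* replicate 1 (adjusted p = 0.0807). VIT1, which loads iron into the vacuole and is known from the embryo, was called higher in *fio1-2* (1.75, adjusted p = 0.0144) on 38 counts over both libraries against 9 in wild type. The VIT1 call did not pass without wild type replicate 1 or 2 (adjusted p = 0.122 and 0.107) or without *fio1-2* replicate 2 (adjusted p = 0.0537), nor with DESeq2 (adjusted p = 0.0926), and the seed markers moved with it. FPN2, a vacuolar metal transporter, had 0.55 in *fio1-1* and -0.57 in *fio1-2*, of which the first did not pass without wild type replicate 1 or 2 or *fio1-1* replicate 2 and the second without any one of the wild-type or *fio1-2* libraries (adjusted p of 0.0629 to 0.481 and of 0.0687 to 0.31). With DESeq2 neither FPN2 value passed (adjusted p = 0.166 and 0.195). BTSL1, BTSL2, ILR3, bHLH38, bHLH101, F6H1, YSL2, VIT1, FPN2 and MYB72 also overlap antisense genes, and FER2 a neighbour on its own strand, so their counts are uncertain in the same way. FPN2 was called lower in *fio1-2* than in *fio1-1* (-1.12, adjusted p = 1.87e-05). YSL1, another chelate transporter, had 0.38 in *fio1-2* (adjusted p = 0.0462), and this did not pass when any single library was left out, with adjusted p up to 0.18, nor with DESeq2 (adjusted p = 0.252).

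Among the 9 listed iron proteins and iron-sulfur assembly genes of the chloroplast, 4 rose and 3 fell in *fio1-1*, and 3 rose and 3 fell in *fio1-2*. The shares over all genes were 14.2% and 14.3% in *fio1-1*, and 16.4% and 16.1% in *fio1-2*. FSD1, the iron superoxide dismutase known to rise when copper is scarce, had 415 ± 4.81 CPM in wild type, against 202 ± 10.3 in *fio1-1* and 767 ± 16.3 in *fio1-2*. It was called lower in *fio1-1* (-1.04, adjusted p = 2.52e-31) and rose in *fio1-2* (0.88, adjusted p = 3.06e-33), the opposite signs to IRT1 and FRO2.

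**Figure D4:**
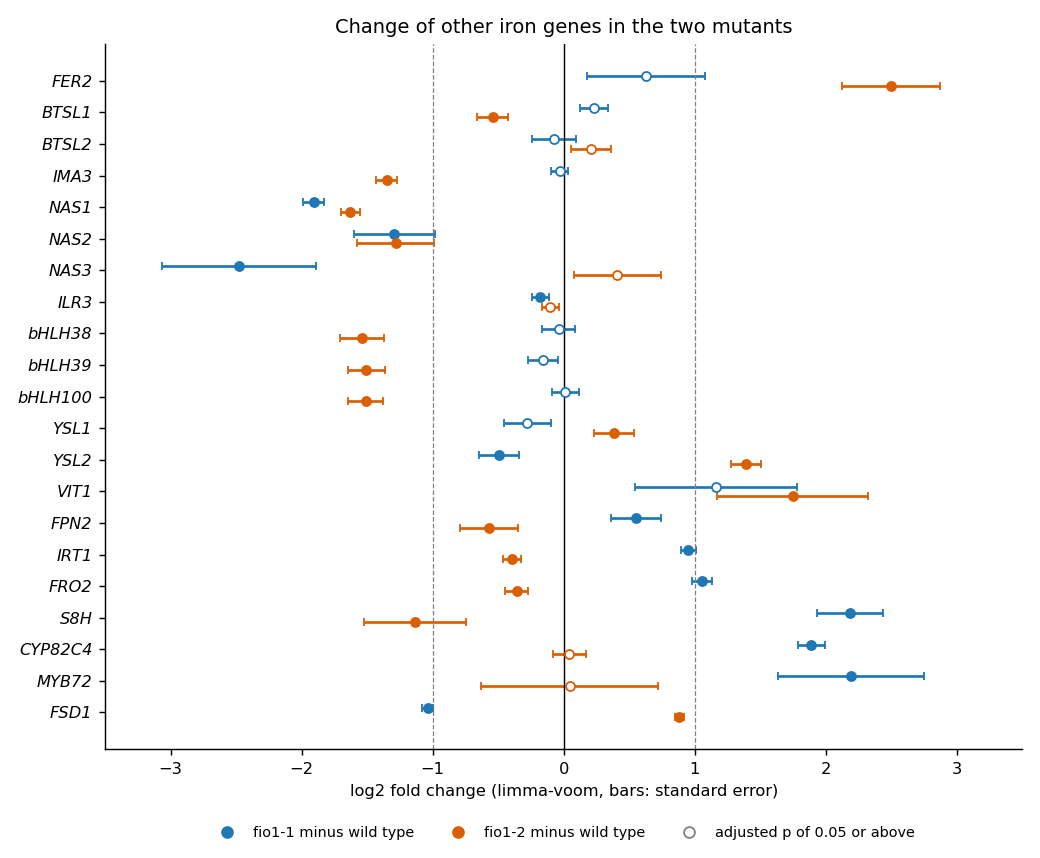
log2 fold change against wild type (x axis) of the iron genes named from the other lists in *fio1-1* (blue) and *fio1-2* (orange), with standard errors of the limma-voom fit as bars and open symbols where the adjusted p was 0.05 or above. IMA3, bHLH38, bHLH39 and bHLH100 lie near 0 in *fio1-1* and between -1.35 and -1.54 in *fio1-2*, NAS1 and NAS2 lie below -1 in both, and IRT1, FRO2, S8H and FSD1 lie on opposite sides of 0.

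For the 3 called genes, the 3 genes with the most similar profile over the 6 libraries were listed by Pearson's r of log2 CPM, among genes of at least 10 CPM and similar spread. Libraries of a genotype lie together, so r mainly reflects the order of the 3 genotypes. The nearest to IMA2 were bHLH100 (0.998), AT3G07720 (0.997) and bHLH38 (0.995), and 16 of 1259 candidates had an r over 0.95. The nearest to IMA1 were AT2G16660 (0.988), ABCB21 (0.983) and CA2 (0.980), with 21 of 777 candidates over 0.95. The nearest to PYE were AT5G64460 (0.994), AT1G48450 (0.992) and CA2 (0.990), with 75 of 1864 over 0.95.

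The upstream sequences were searched because the iron bHLH factors bind E-boxes (CANNTG), and ILR3 and its relatives bind the G-box (CACGTG), one kind of E-box. Both strands of the 300 bases before each annotated gene start were read from TAIR10.1. A G-box was found upstream of 4 of the 10 genes (FER3, FER4, BTS and OPT3), against 7.09% of 27444 protein-coding genes. Windows of 30 bases around these matches, and around those of bHLH38 and bHLH100, are printed 5′ to 3′ on the strand of the gene, with the G-box in capitals.
FER3, chr3:20816094-20816123, minus strand: atcgtatccatcCACGTGtcaacaatccac
FER4, chr2:16833346-16833375, minus strand: atctcgtacgtaCACGTGtctctcatccgc
BTS, chr3:6273808-6273837, plus strand: gtaagacgcttgCACGTGtcgagatgtaat
BTS, chr3:6273830-6273859, plus strand: gatgtaatcggtCACGTGccaacctgggtt
BTS, chr3:6273884-6273913, plus strand: gatgtgaatggcCACGTGctacaaaaccta
OPT3, chr4:9250404-9250433, minus strand: gaccttcaacggCACGTGcgtctcacacgc
bHLH38, chr3:21085325-21085354, minus strand: cataggcttcgaCACGTGccaacctatgcc
bHLH100, chr2:17199528-17199557, minus strand: aaagtgctcaacCACGTGtcaacgcatgtc
Relative to the gene start, the first base of the match lay at -76 in FER3, -69 in FER4 and -78 in OPT3, and at -146, -124 and -70 in BTS. FER3 and FER4 hold their G-boxes at similar places. In *fio1-2* FER3 fell and FER4 rose, though the FER4 rise did not pass with DESeq2 (adjusted p = 0.0922). Any part of the G-box in these changes was not tested. Of the 10 genes, those called lower in *fio1-2*, IMA1, IMA2 and PYE, held no G-box in this window. Nor did bHLH39, bHLH101, IMA3, NAS1 or FER2, which were searched along with bHLH38 and bHLH100. bHLH38 and bHLH100, which held a G-box, were also called lower in *fio1-2*. An E-box of any kind was found in 7 of 10, against 61.9% of all protein-coding genes, and none lay upstream of FER1, PYE or FRO3. IMA1 and IMA2 each held 2 E-boxes, with the same letters in the same order. The core GGCCGCC of the iron-dependent element described for FER1 and the phosphate starvation motif GNATATNC matched 0 of 10 in this window, against 0.383% and 6.5% of all protein-coding genes. A match is a description of the letters and no measure of binding.

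**Figure D5:**
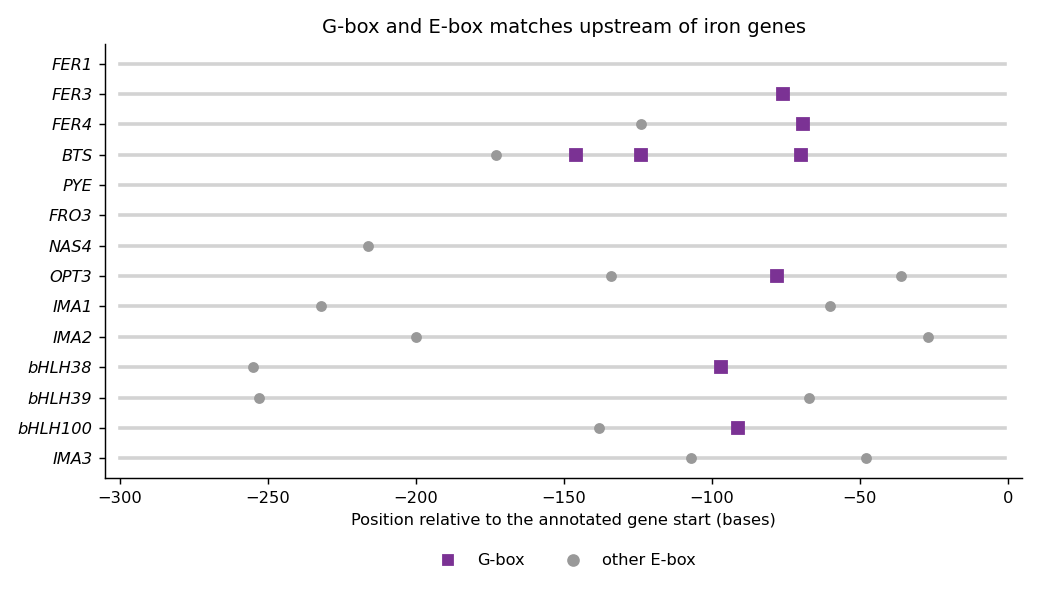
Positions of G-boxes (purple squares) and other E-boxes (grey circles) in the 300 bases upstream of the annotated start (x axis, in bases) for the 10 iron genes and for bHLH38, bHLH39, bHLH100 and IMA3. G-boxes occur in FER3, FER4, BTS, OPT3, bHLH38 and bHLH100, all of them between -146 and -69.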

How the data were processed

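RNA-seq read counts of 6 libraries were analysed. The authors trimmed reads with Trim Galore 0.6.3, aligned them to TAIR10 with HISAT2 2.1.0 and counted reads per gene with HTSeq 0.9.1; the deposited counts are raw. Deposited tables of the authors' own comparisons (log2 fold changes and p-values) were not used. Counts were TMM-scaled (edgeR 4.0.16) and genes were filtered with filterByExpr. All 6 libraries were fitted together with limma-voom (limma 3.58.1, R 4.3.3), with a mean for each genotype and a shared spread. The fit had 3 residual and 62.14 prior degrees of freedom and no covariates. DESeq2 1.42.0, edgeR, other scalings and filters, a replicate block and leaving out each library were alternatives. The members and lists were chosen with earlier results of these data known. Named genes are the 10 members, every listed iron gene called in any comparison, 10 listed genes fixed by name (FER2, BTSL1, BTSL2, ILR3, IMA3, NAS1, NAS2, NAS3, YSL1, FSD1), and the 3 closest profiles of each called member. The latter used log2(CPM + 0.5) and candidates with an SD within 0.5 to 2 times that of the member. Also named, after their values were seen, were bHLH101, FIT, F6H1, PDR9 and single tissue markers. Sequences come from TAIR10.1 (RefSeq), which matched 21226 tested genes by locus, and coding sequences were aligned with Biopython 1.88. Seedlings were pooled per line. The authors call the replicates biological, but do not state whether they were grown apart. The p-values thus rest on the spread between these libraries, estimated for each gene mostly from all genes. Replicates differed by more than counting error (mean chi-square per gene 1.49 to 1.99). A permutation test of 2 against 2 libraries cannot go below p = 0.333, so none was made.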

Additional observations from a re-analysis of the deposited data

Results flagged for a closer look

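The 2 mutants differed, in the direct limma-voom test of *fio1-2* against *fio1-1*, in 9 of the 10 genes. Over all tested genes, 8.76% were lower and 9.31% higher in this comparison. The log2 differences were -1.36 for IMA2, -1.28 for IMA1, -0.63 for PYE, -0.62 for NAS4, -0.50 for FRO3, -0.34 for OPT3 and -0.27 for BTS, all lower in *fio1-2*. FER1 (0.35) and FER4 (0.31) were higher in *fio1-2*. FER4 did not pass when any one mutant library was left out, with adjusted p of 0.0663 to 0.207, nor with every gene that had a count (adjusted p = 0.0512) or with DESeq2 (adjusted p = 0.241).

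Of the other named iron genes, the difference was negative for S8H (-3.32), MYB72 (-2.15), CYP82C4 (-1.85), bHLH100 (-1.52), bHLH38 (-1.50), FRO2 (-1.42), bHLH39 (-1.35), IRT1 (-1.35), IMA3 (-1.32), FPN2 (-1.12) and BTSL1 (-0.77). It was positive for NAS3 (2.89), FSD1 (1.92), YSL2 (1.88), FER2 (1.87), YSL1 (0.66) and NAS1 (0.28). Without *fio1-2* replicate 2 the MYB72 difference did not pass (adjusted p = 0.0548), nor without *fio1-1* replicate 1 that of YSL1 (adjusted p = 0.0983). NAS1 did not pass without *fio1-1* replicate 1 or 2 or *fio1-2* replicate 1 (adjusted p of 0.109 to 0.177), nor with DESeq2 (adjusted p = 0.0919). With 2 libraries per genotype, no test for a library far from the others of its group was possible.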

How the results depend on the processing

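The counts of genes past the adjusted p and of calls were repeated under 16 alternatives. The number of the 10 genes past the adjusted p stayed within 1.5 times its value in each comparison. It was 10 in *fio1-2* against wild type and 8 with DESeq2, where FER4 and NAS4 did not pass. The 3 calls in *fio1-2* and the 2 between the mutants kept their number under all 16. In *fio1-1*, 0 genes were called, but 1, FER1, was called with DESeq2, with RLE factors, with library totals only and with every gene that had a count. Leaving out 1 library gave 0 to 1. The replicate numbers are shared by the genotypes, but same-numbered libraries did not deviate together (correlations across genes of 0.00031, -0.0043 and -0.028). These correlations weigh all tested genes alike, low counts included, so they cannot show whether same-numbered libraries were handled together. With a replicate block, 1 gene was called in *fio1-1*, against 0 without it, and the number past the adjusted p was the same. Of 480 values of the 10 genes under the alternatives, 462 kept direction and side of the threshold, 11 no longer passed, 1 newly passed and 6 changed sign. The same counts for the other named genes were 950, 39, 1 and 16 of 1006.

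The sign changes were all in values that did not pass the test. In *fio1-1* against wild type, upper-quartile factors gave 0.016 for FRO3, 0.0071 for IMA3 and 0.0028 for bHLH38, and library totals only gave -0.012 for bHLH100. Upper-quartile factors also gave -0.011 for NAS2 between the mutants. When each library was left out in turn, values in *fio1-1* ranged from -0.042 to 0.13 for FER4, -0.057 to 0.0043 for FRO3, -0.038 to 0.31 for NAS4, -0.0095 to 0.12 for IMA2, -0.35 to 0.21 for BTSL2, -0.066 to 6.94e-05 for IMA3, -0.12 to 0.048 for bHLH38 and -0.030 to 0.046 for bHLH100. In *fio1-2* they ranged from -0.066 to 0.49 for BTSL2, -0.059 to 0.12 for CYP82C4 and -0.055 to 0.15 for MYB72, and NAS2 between the mutants from -0.13 to 0.19. The cause was not tested.

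With 2 libraries per genotype the spread of a gene is estimated mostly from all genes. Where an arm was left with 1 library, that library was assumed to vary like the other groups. Levels of a few CPM, as for VIT1, MYB72 and NAS3, rest on few counts.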
